A study of Danio rerio with 25 samples.

Results

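The genes described here act at the neuromuscular junction (NMJ), the synapse at which a motor neuron drives a muscle fiber. They were chosen by name, as 10 gene symbols: the acetylcholine receptor (AChR) subunits *chrna1*, *chrnb1*, *chrnd*, *chrng* and *chrne*, the receptor clustering genes *agrn*, *musk*, *dok7* and *rapsn*, and *ache*. The 10 symbols matched 11 of the 32520 gene IDs in the tables, of which 29201 carry a symbol, because 2 IDs bear the name *chrnb1*. Neither the files nor the reference say which of these is *chrnb1* and which its neighbouring copy *chrnb1l*, so they are called the higher *chrnb1* copy (ENSDARG00000069660) and the lower *chrnb1* copy (ENSDARG00000022532). All 11 genes passed the filter of at least 10 counts summed over all libraries.

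Whole zebrafish larvae were sequenced by RNA-seq on day 7 after fertilization (7 dpf), with 2 larvae in each library. The larvae were Dystrophin-deficient *dmd* mutants of the sapje ta222a line or their WT siblings. Treated larvae had completed 3 sessions of endurance neuromuscular electrical stimulation (eNMES), at 2, 3 and 4 dpf, so that RNA was taken 3 days after the last session. Controls received no stimulation. Before each session treated larvae were placed in the anesthetic tricaine. The study's methods do not say whether controls were handled alike at these times. The 24 libraries analysed were 8 untreated and 9 trained (eNMES) *dmd* mutant libraries, 4 WT sibling control libraries and 3 from WT siblings that had trained. P-values set a difference between groups against the spread between such libraries. Replicate 1 of the *dmd* mutant eNMES group was not analysed here. The pairs of larvae that made up a library were not drawn at random, since the study sorted larvae by how severe their disease had been when it began and by how birefringence had since developed.

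At the NMJ, the nerve releases acetylcholine, which opens the pentameric AChR in the muscle membrane. The receptor holds alpha, beta and delta subunits together with a gamma subunit in embryonic and denervated mammalian muscle or an epsilon subunit in innervated adult mammalian muscle. Agrin, encoded by *agrn* and secreted by the nerve, binds LRP4 and so activates the kinase MuSK, encoded by *musk*. Dok-7, encoded by *dok7*, binds MuSK inside the fiber and sustains its activity, and Rapsyn, encoded by *rapsn*, ties receptors into clusters. Acetylcholinesterase, encoded by *ache*, breaks the transmitter down. In mammals, transcription of the receptor genes is kept to nuclei under the synapse while the nerve is active and spreads along the fiber after denervation.

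Libraries held between 7957160 and 22808348 counts. Transcripts of *dmd* were present in every library at 1008 to 1435 normalized counts in *dmd* mutants and 2588 to 5395 in WT siblings, so all libraries lay on the side that their genotype label gives. Here a normalized count is a count divided by the TMM-adjusted size of its library and set to the average size. Fast muscle markers summed to between 66311 and 95184 TPM, a unit corrected for transcript length and depth, and none of their 19 gene IDs was at 0 in every library. A component of 35 clock genes divided the *dmd* mutant libraries into set 1 (control replicates 1 to 5 and eNMES replicates 2 to 6) and set 2 (control replicates 6 to 8 and eNMES replicates 7 to 10). It ran from 2.19 to 2.78 in WT sibling controls and from -3.26 to -2.59 in WT siblings with eNMES, so in WT siblings this state and eNMES cannot be told apart. Mutant controls lay between -2.38 and -0.68 (set 1) or between 1.59 and 2.22 (set 2). Trained mutants lay between -2.56 and -0.66 (set 1) or between 1.96 and 2.71 (set 2). Set 2 was thus nearer to WT siblings when untreated, and set 1 when trained. Comparisons of genotypes over both sets therefore also span this state, and its part in them was not tested. Whole larvae were sequenced, so a lower number of muscle or nerve cells and less RNA per cell cannot be told apart either.

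Levels differed widely between the genes. On the TPM scale, *ache* (ENSDARG00000031796) was the highest, with a median of 63.9 TPM over the 24 libraries and a range of 60.8 to 73.7. The *chrna1* gene (ENSDARG00000009021) followed at 19.3 to 31.9 TPM and *agrn* (ENSDARG00000079388) at a median of 21.3 TPM, with *chrna1* above *agrn* in 20 of 24 libraries. Next came *chrne* (ENSDARG00000034307) at a median of 12.2 TPM, the higher *chrnb1* copy at 11.1 TPM, *rapsn* (ENSDARG00000041133) at 10.9 TPM and *chrnd* (ENSDARG00000019342) at 9.3 TPM. The ranges of these 4 genes overlapped, and neighbours in this order stood that way round in only 15 to 17 of 24 libraries. A lower tier held *musk* (ENSDARG00000098764) at a median of 4.96 TPM, *dok7* (ENSDARG00000060236) at 4.86 TPM and *chrng* (ENSDARG00000086647) at 4.54 TPM. Here *musk* exceeded *dok7* in 12 of 24 libraries and *dok7* exceeded *chrng* in 13, so the order among them is not set by these data. The lower *chrnb1* copy stood last at 0.965 TPM, and *dok7a*, a copy of *dok7* outside the 10 symbols, had a median of 1.43 TPM.

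Among the receptor subunits, *chrna1* alone gave 39.2% ± 2.33 (SD, n = 24) of the summed TPM, between 34.1% and 43.5% in single libraries. In WT siblings this share was 39.0% ± 0.949 without and 39.9% ± 3.03 with eNMES, and in *dmd* mutants it was 38.9% ± 2.61 without and 39.2% ± 2.61 with eNMES, so group means differed by no more than the SD of the 3 most variable groups. The summed TPM of the 6 subunit genes was 53.3 ± 2.59 in WT sibling controls and 66.8 ± 5.81 in *dmd* mutant controls, and it was 60.4 ± 6.4 and 67.5 ± 6.47 in the corresponding eNMES groups. Variation between libraries was uneven: the coefficient of variation of normalized counts over all 24 libraries was 31.7% for *chrng*, 6.73% for *agrn* and 5.47% for *ache*. The most variable gene, *chrng*, encodes the gamma subunit, and the 2 steadiest are genes that other tissues such as brain also express. This variation includes the differences between groups. Raw counts in a library were 1927 to 5162 for *ache* and 941 to 2864 for *agrn*, against 58 to 302 for *chrng*. What set the variation was not tested.

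**Figure D1:**
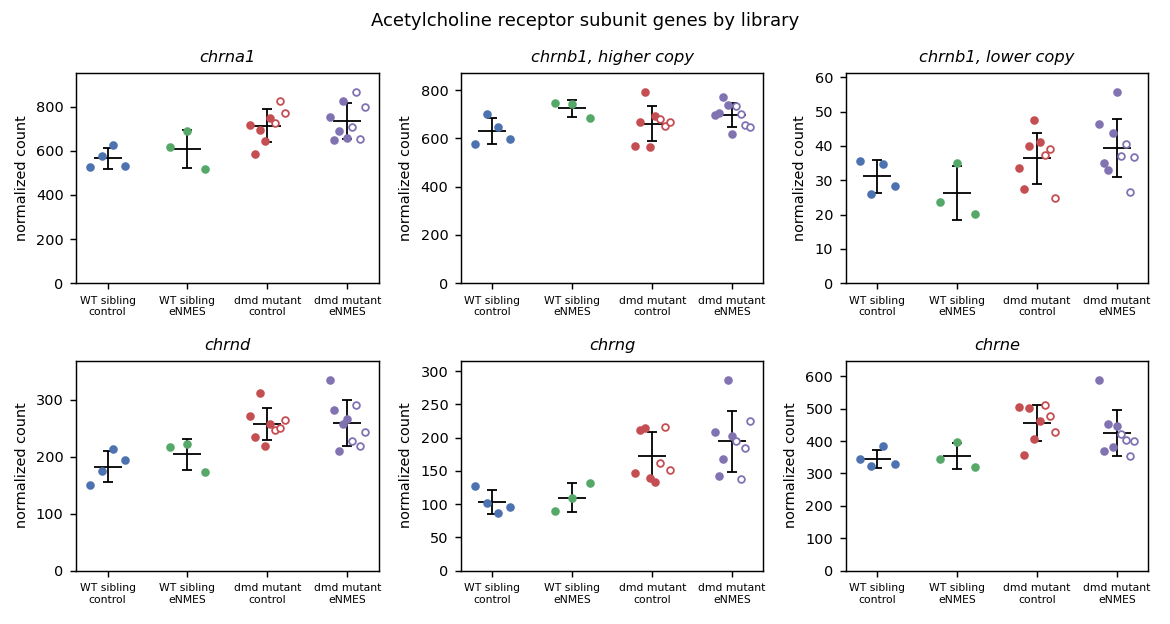
Normalized counts of the 6 AChR subunit genes in each library, by group; points are libraries (open points: *dmd* mutant library set 2), and the bars give the mean ± SD. In *chrng* all 8 *dmd* mutant control libraries lie at 134 or above and all 4 WT sibling controls at 128 or below, whereas the higher *chrnb1* copy overlaps across all 4 groups.

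Transcripts of AChR subunits were higher in untreated *dmd* mutants than in untreated WT siblings. The genes *chrng*, *chrnd*, *chrne* and *chrna1* rose by between 1.26-fold and 1.67-fold, and *musk*, which encodes the kinase that starts receptor clustering, rose 1.3-fold. The *agrn*, *dok7* and *ache* genes and both copies of *chrnb1* did not pass the test. Of the 11 genes, 5 had an adjusted p under 0.1, all of them higher in *dmd* mutants, where 10.9% of all 25832 genes tested reached that threshold. Only *chrng* also passed an absolute log2 fold change of 0.6, as 3.12% of all genes did. The log2 fold change was positive for 9 of 11 genes with a median of 0.33, beside a median of 0.01 over all genes.

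The gamma subunit gene *chrng* changed the most. WT sibling controls had 128, 102, 86.9 and 95.9 normalized counts, and *dmd* mutant controls ran from 134 over a median of 156 to 217. Every *dmd* mutant control lay above every WT sibling control, with the 3 highest libraries (replicates 2, 3 and 7) at 212 to 217 apart from the other 5. This was a log2 fold change of 0.74 ± 0.18 (SE), which is 1.67-fold with a 95% interval of 1.29 to 2.15 (adjusted p = 0.0141, edgeR), and the exact permutation test gave p = 0.00202, two-sided, the smallest it can give for 4 against 8 libraries. With only set 1 of the *dmd* mutant libraries *chrng* gave 0.71 (adjusted p = 0.0297), and with only set 2 it gave 0.77 (adjusted p = 0.0281).

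The delta subunit is part of every muscle AChR. Its gene *chrnd* had 149.8, 174, 213 and 194 normalized counts in WT sibling controls and 219 to 312 with a median of 254 in *dmd* mutant controls. These groups did not overlap, although the lowest mutant library was close to the highest WT sibling. In the fit, *chrnd* changed by 0.49 ± 0.12 on the log2 scale (adjusted p = 0.0118, edgeR; exact permutation p = 0.00202).

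The alpha subunit carries the acetylcholine binding site together with its neighbours. Its gene *chrna1* had 526.2, 578, 628 and 529.9 normalized counts in WT sibling controls, and in *dmd* mutant controls it had 584 at the lowest, 721 at the median and 824 at the highest. Of the 8 *dmd* mutant controls, 7 lay above all WT siblings, while replicate 2 lay within their range. On the log2 scale *chrna1* changed by 0.33 ± 0.09 (adjusted p = 0.0306, edgeR), and without WT sibling control replicate 1 the adjusted p was 0.118.

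The epsilon subunit gene *chrne* behaved alike. Its normalized counts were 343, 324, 386 and 329 in WT sibling controls and 357 to 513 with a median of 470.0 in *dmd* mutant controls. Replicate 2 of the *dmd* mutants was again the one library inside the WT sibling range. Its log2 fold change was 0.40 ± 0.11 (adjusted p = 0.0325, edgeR). Counts of *chrnb1* did not follow. The higher copy had 575, 700.4, 646 and 599 normalized counts in WT sibling controls and 563 to 791 with a median of 667 in *dmd* mutant controls, so the WT sibling range lay within that of the mutants. Its log2 fold change was 0.07 ± 0.08 with a 95% interval of -0.09 to 0.22 (adjusted p = 0.656, edgeR). The lower copy, with only 17 to 51 raw counts in a library, gave 0.22 ± 0.19 (adjusted p = 0.56).

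Among the clustering genes, *musk* rose and the others did not pass the test. Counts of *musk* were 191, 216, 189 and 227 in WT sibling controls and 243 to 326 with a median of 258 in *dmd* mutant controls. No library of one group fell within the other, and replicate 3 of the mutants stood above the rest. This amounted to a log2 fold change of 0.38 ± 0.10 (adjusted p = 0.0245, edgeR; exact permutation p = 0.00202). The adjusted p was 0.104 without WT sibling control replicate 1, 0.101 without replicate 3 and 0.199 when only set 2 of the *dmd* mutant libraries was used. Set 2 was the set of untreated mutants nearer to WT sibling controls on the clock component, and it held only 3 control libraries. The receptor genes *chrng*, *chrnd*, *chrna1* and *chrne* still passed with set 2 alone. All 24 libraries held an estimated *musk* count that was not whole, so some of its reads were shared by estimation with other entries. The same held in 23 of 24 libraries for *ache* and for *agrn* and in 16 for *chrnd*. For the other junction genes it held in 0 (*rapsn*) to 11 (*chrna1*) libraries.

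Rapsyn binds the receptor directly, and *rapsn* showed the widest spread of the clustering genes. WT sibling controls were tight at 128, 133, 135 and 131 normalized counts, whereas *dmd* mutant controls reached from 99.4 over a median of 185 to 209. In the mutants 7 of 8 libraries lay above all WT siblings and replicate 6 lay below them. The log2 fold change of 0.41 ± 0.16 did not pass at an adjusted p of 0.121 (edgeR), and the exact permutation p was 0.0626. Without *dmd* mutant control replicate 6 it was 0.50 (adjusted p = 0.0257), and DESeq2 on all libraries gave an adjusted p of 0.093.

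The spread of *rapsn* followed the library sets, which were defined from clock genes and not from *rapsn*. In set 1, its counts were 179 to 209 in controls and 159 to 193 after eNMES. In set 2, they were 99.4 to 171 and 127 to 146. Against WT sibling controls the log2 fold change was 0.57 with set 1 alone (adjusted p = 0.00201, edgeR) and 0.10 with set 2 alone (adjusted p = 0.842). Set 1 controls also lay apart from WT sibling controls on the clock component, so genotype and clock state cannot be told apart in the set 1 value. The *dok7* gene lay the other way in *dmd* mutant controls, at 156 to 197 in set 1 and 213 to 222 in set 2. After eNMES its sets overlapped, at 169 to 198 in set 1 and 188 to 241 in set 2. The patterns of *rapsn* and *dok7* were noticed after the values were seen, and the difference between the sets was not tested.

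The remaining genes, the MuSK adaptor *dok7*, the nerve-derived ligand *agrn* and the enzyme *ache*, did not pass the test. Counts of *dok7* were 169.9, 206, 215 and 176 in WT sibling controls and 156 to 222 with a median of 196 in *dmd* mutant controls, a log2 fold change of -0.01 with a 95% interval of -0.24 to 0.22. For *agrn* they were 2566, 2639.7, 2514 and 2423 against 2311 to 2792, a log2 fold change of -0.03 with an interval of -0.14 to 0.09. For *ache* they were 4243, 4315, 4143 and 4002 against 4165 to 4832, a log2 fold change of 0.08 with an interval of -0.02 to 0.19. The groups overlapped in all 3 genes, and their intervals are narrower than that of *chrng*. The copy *dok7a* gave a log2 fold change of -0.22 with an interval of -0.53 to 0.08 (adjusted p = 0.407, edgeR). For *dok7a*, 5 of 8 *dmd* mutant controls lay below all WT sibling controls. Between trained genotypes *dok7a* gave -0.26 (adjusted p = 0.34, edgeR). Of the 11 genes, 3 had groups that did not overlap (*chrng*, *chrnd* and *musk*), each higher in *dmd* mutants, where 3.05% of all genes lay entirely higher.

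**Figure D2:**
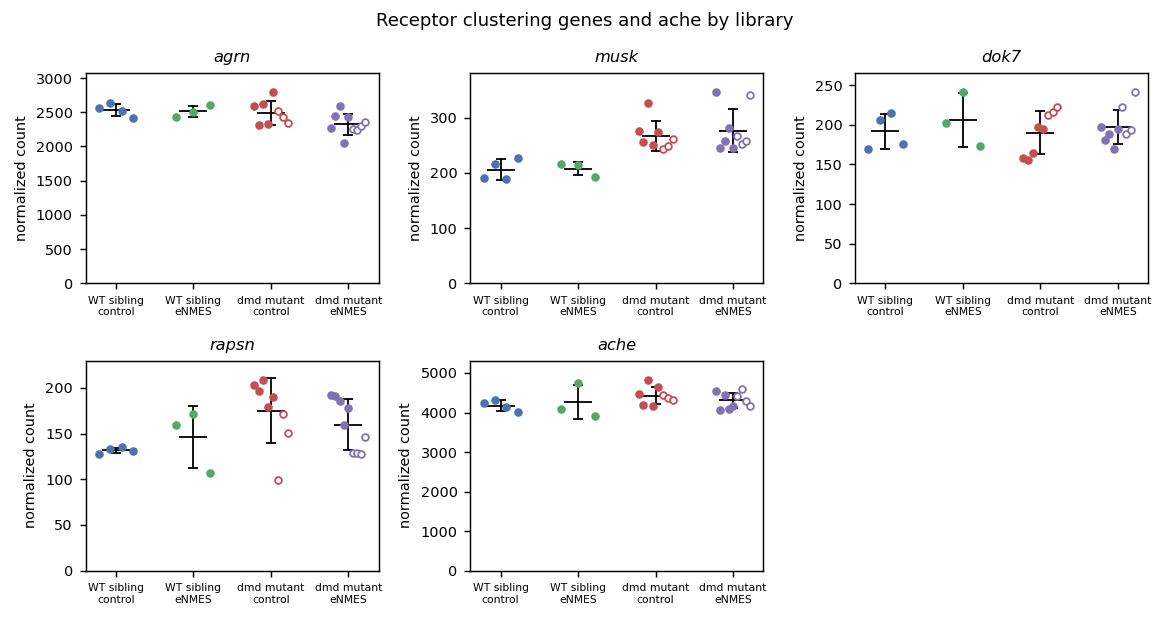
Normalized counts of *agrn*, *musk*, *dok7*, *rapsn* and *ache* in each library, drawn as for the receptor subunits (mean ± SD; open points: *dmd* mutant library set 2). The *musk* counts of all *dmd* mutant libraries lie at 243 or above and those of WT siblings at 227 or below, and the set 2 libraries sit low for *rapsn*.

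Trained *dmd* mutants were compared with trained WT siblings to ask whether the genotype difference was also present after eNMES. The gamma subunit gene and *musk* were again higher in *dmd* mutants, with *chrnd* at the edge of the threshold. At an adjusted p under 0.1 there were 3 of 11 genes, all higher, beside 12.3% of all genes, and 1 of 11 was called with the minimum fold change, beside 3.94% of all genes. DESeq2 gave 5 of 11 at an adjusted p under 0.1, for which its share over all genes was not counted. With the minimum fold change DESeq2 called 1 of 11, beside 1150 genes in all, where edgeR called 1018. The log2 fold change was positive for 8 of 11 genes with a median of 0.27, beside 0.00 over all genes.

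Counts of *chrng* were 88.9, 108 and 132 in WT siblings with eNMES and 138 to 287 with a median of 195 in *dmd* mutants that had trained. All 9 mutant libraries lay above the 3 WT siblings, and replicate 5 of the mutants was the highest of all 24 libraries. The difference was 0.83 ± 0.20 on the log2 scale, or 1.78-fold with a 95% interval of 1.35 to 2.36 (adjusted p = 0.0101, edgeR; exact permutation p = 0.00455, the smallest possible for 3 against 9). Counts of *musk* were 216, 214 and 193 in WT siblings with eNMES and 244 to 346 with a median of 258 in mutants with eNMES. These groups did not overlap either, and the log2 fold change was 0.42 ± 0.11 (adjusted p = 0.0198, edgeR). It no longer passed without WT sibling eNMES replicate 3 (0.38, adjusted p = 0.127). Non-overlap with mutants higher was found for these 2 of 11 genes, beside 4.38% of all genes.

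For *chrnd*, WT siblings with eNMES had 217, 222 and 173 normalized counts and mutants with eNMES 210.3 to 335 with a median of 258. Of the 9 mutants, 7 lay above all WT siblings. The log2 fold change of 0.34 ± 0.13 had an adjusted p of 0.0995 (edgeR), which was above 0.1 in 16 of 24 fits that left out a library, up to 0.411 without WT sibling eNMES replicate 3. The *chrna1* gene gave 0.27 ± 0.10 (adjusted p = 0.104) and *chrne* 0.27 ± 0.12 (adjusted p = 0.19). The lower *chrnb1* copy gave 0.58 ± 0.22 (adjusted p = 0.105) from 20.1 to 35.2 normalized counts in WT siblings and 26.7 to 55.6 in mutants, groups that overlapped. It was called, making 2 genes instead of 1, without WT sibling eNMES replicate 2 (0.84, adjusted p = 0.0679), without *dmd* mutant eNMES replicate 4 (0.61, adjusted p = 0.0962) or 9 (0.64, adjusted p = 0.0737), and with set 1 of the mutant libraries alone (0.70, adjusted p = 0.0867). The genes *rapsn*, *dok7*, *ache* and *agrn* and the higher *chrnb1* copy lay between -0.11 and 0.14 on the log2 scale.

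**Figure D3:**
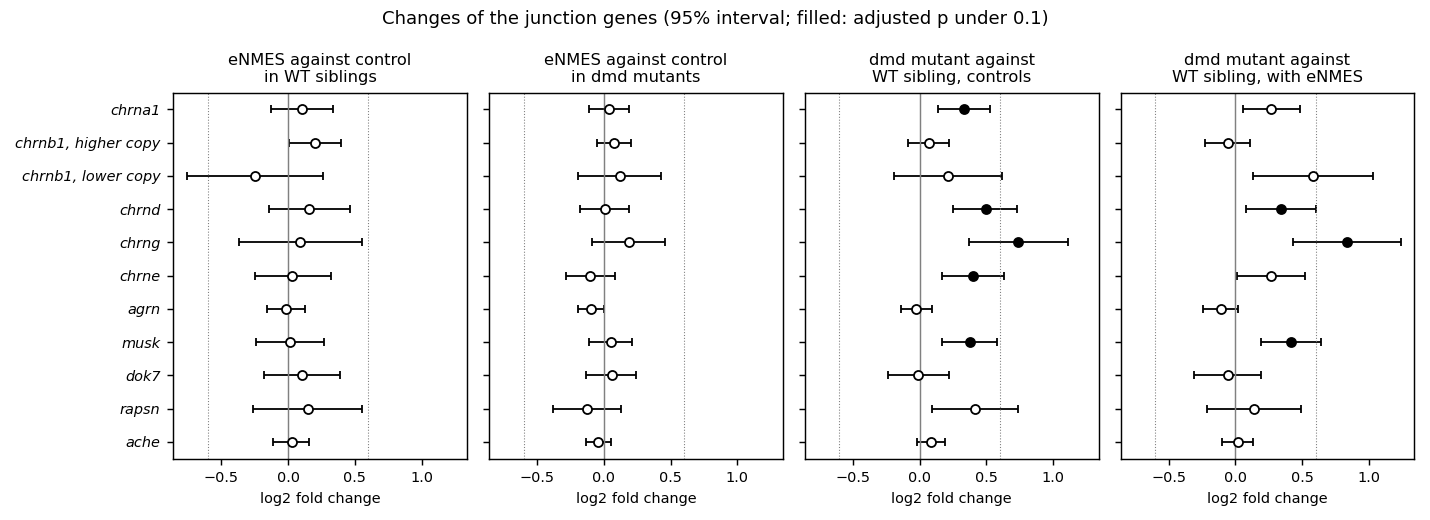
Log2 fold change of each junction gene in 4 comparisons; bars are 95% intervals from the edgeR fit, filled points have an adjusted p under 0.1 over all genes tested, and dotted lines mark an absolute change of 0.6. No gene is filled in the 2 eNMES comparisons, 5 are filled between the untreated genotypes and 3 between the trained ones.

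In WT siblings, eNMES left no junction gene past the test 3 days after the last session. Of 11 genes, 0 were called by edgeR and 0 by DESeq2, beside 2.95% of all genes by edgeR, and 0 had an adjusted p under 0.1, beside 6.48% of all genes. At an unadjusted p under 0.05, beside 4525 of all 25832 genes, there was 1 of the 11, the higher *chrnb1* copy. Its counts were 746, 743 and 684 with eNMES and 575, 700.4, 646 and 599 in controls, so 2 of the 3 treated libraries lay above all controls. It gave a log2 fold change of 0.20 ± 0.09 (adjusted p = 0.264, edgeR), and the exact permutation p was 0.0857, where 3 against 4 libraries can reach 0.0286. Changes of the 11 genes ran from -0.25 to 0.20 with a median of 0.09. Intervals were wide at this number of libraries: for *chrng* the 95% interval was 0.775-fold to 1.46-fold, and for *rapsn*, with 159, 172 and 107 normalized counts after eNMES, it was 0.837-fold to 1.46-fold. The interval of *ache*, from 4098, 4741 and 3924 normalized counts, was narrower at 0.928-fold to 1.12-fold. Groups of no junction gene were apart, beside 20.3% of all genes.

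In *dmd* mutants, eNMES likewise moved no junction gene past the test, and here the groups were larger. Of 11 genes, 0 were called by edgeR and 0 by DESeq2, beside 0.128% of all genes by edgeR, and 0 had an adjusted p under 0.1, beside 0.414% of all genes. At an unadjusted p under 0.05, beside 2653 of all 25832 genes, there was 1 of the 11, *agrn*. Its counts ran from 2311 over a median of 2476 to 2792 in controls and from 2050.0 over 2303 to 2594 with eNMES. The groups overlapped, although 5 of 9 treated libraries lay below all controls. In log2 terms *agrn* gave -0.10 ± 0.05 (adjusted p = 0.465, edgeR, and exact permutation p = 0.0561). Of 9 neuron markers, 0 had a positive change here, with a median of -0.125. With edgeR, 7 of the 9 had an unadjusted p under 0.05 and 0 an adjusted p under 0.1. Whether this bears on *agrn* was not tested.

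The gamma subunit gene had the highest change with eNMES in *dmd* mutants. Its counts were 134 to 217 with a median of 156 in controls and 138 to 287 with a median of 195 after eNMES. Only 2 of 9 treated libraries lay above all controls. The log2 fold change was 0.18 ± 0.14 (adjusted p = 0.69, edgeR), with a 95% interval of 0.938-fold to 1.38-fold. Its epsilon partner *chrne* gave -0.10 ± 0.09 (adjusted p = 0.741) with an interval of 0.822-fold to 1.05-fold, and *rapsn* gave the lowest value of the 11, -0.13 ± 0.12. The intervals of all 11 genes lay between 0.768-fold and 1.38-fold. They do not show that expression was the same, but in this fit they leave out a 1.5-fold change in either direction.

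Whether eNMES changed these genes differently in the 2 genotypes was tested as the difference of the eNMES changes, *dmd* mutant minus WT sibling. Of 11 genes, 0 were called by edgeR and 0 by DESeq2, beside 1.85% of all genes by edgeR, and 0 had an adjusted p under 0.1, beside 2.81% of all genes. None of the 11 had an unadjusted p under 0.05, beside 3752 of all 25832 genes. Differences ran from -0.27 for *rapsn* to 0.37 for the lower *chrnb1* copy on the log2 scale, and the difference was 0.10 ± 0.26 for *chrng* (adjusted p = 0.918, edgeR).

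The gamma and epsilon subunits take the same place in the receptor, so their balance was examined as the share of *chrng* in the summed TPM of *chrng* and *chrne*. It was 27.4%, 24.2%, 18.6% and 22.8% in WT sibling controls and 20.9%, 21.7% and 29.6% in WT siblings with eNMES. In *dmd* mutants it ran from 22.7% over a median of 26.2% to 37.6% untreated and from 25.9% over 31.5% to 43.4% with eNMES. The groups overlapped, and *chrne* was the more abundant transcript in every library. Group means were 23.3% ± 3.67, 24.1% ± 4.84, 27.7% ± 5.16 and 31.7% ± 5.72 (SD) in this order. These shares are a description from estimated TPM values, and no test was made of them.

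**Figure D4:**
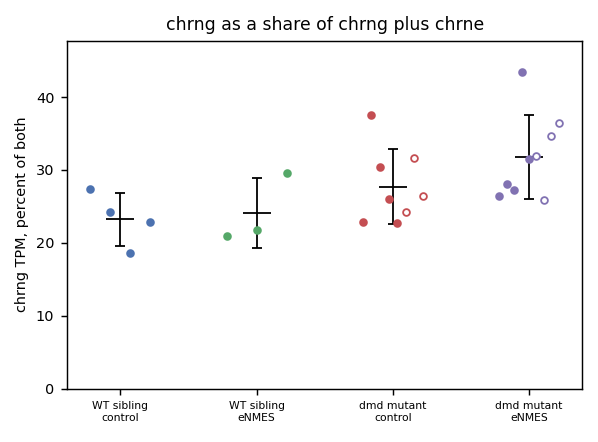
Share of *chrng* in the summed TPM of *chrng* and *chrne* for each library (percent), by group, with mean ± SD; open points are *dmd* mutant library set 2. Means run from 23.3% in WT sibling controls to 31.7% in *dmd* mutants with eNMES, and all 4 groups overlap.

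The genes around these members were counted from lists. Of all 25832 genes, 1695 were higher and 1110 lower in *dmd* mutant controls than in WT sibling controls at an adjusted p under 0.1, which is 10.9% in either direction and the background for the counts of each list. No difference between a list and other genes was tested. Of 20 gene IDs for agrin and MuSK signalling, 2 were higher in *dmd* mutant controls and 0 were lower, a share near this background, with a list median of -0.03. These were 1 of 2 IDs named *FZD9*, a Frizzled receptor for Wnt ligands, at 20.8 ± 2.88 against 42.4 normalized counts (log2 fold change 1.02 ± 0.22, adjusted p = 0.006, edgeR), and 1 of 2 named *DVL1*, which encodes the Wnt signalling adaptor Dishevelled (0.28 ± 0.10, adjusted p = 0.0963). The other ID named *DVL1* was the lowest of the list at -0.23. The agrin receptor gene *LRP4* had 291 ± 17.2 normalized counts in WT sibling controls and 289 ± 39.1 in *dmd* mutant controls, and *COLQ*, whose collagen tail anchors acetylcholinesterase, had 563 ± 69.0 and 546 ± 60.5. Neither *LRP4* (adjusted p = 0.951) nor *COLQ* (adjusted p = 0.82) passed the test with edgeR. Both were singled out after their values were seen, for their direct binding to members.

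Of 21 gene IDs for the synaptic scaffold and basal lamina, 9 were higher and 1 was lower in *dmd* mutant controls, with a median of 0.13. The highest was *LAMB2*, the laminin beta 2 chain of the synaptic basal lamina, at 0.53 ± 0.06 (adjusted p = 4.64e-06, edgeR), and the lowest was *scn4aa*, a muscle sodium channel, at -0.83 ± 0.27 from 25.9 against 14.6 normalized counts (adjusted p = 0.0615). The other sodium channel copy *scn4ab* was higher at 0.37 ± 0.07. With eNMES in both genotypes, 8 of 21 were higher and 0 lower, *LAMB2* at 0.62 ± 0.07, where 12.3% of all genes passed in either direction.

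Neuregulin genes, whose products signal from nerve to muscle, and their receptors and ETS factors gave 0 higher and 3 lower of 15 in *dmd* mutant controls: *NRG1* at -0.52 ± 0.13 (adjusted p = 0.0202, edgeR), 1 of 2 IDs named *NRG2* at -0.25 ± 0.07 and 1 of 3 named *ERBB4* at -0.28 ± 0.09. The other *NRG2* ID was the highest of the list at 0.08 and did not pass. Between trained genotypes 0 of 15 passed, beside 12.3% of all genes. There 11 of 15 were positive, with a median of 0.05, and *NRG1* was the highest at 0.32. In WT siblings, *NRG1* had 404 ± 34.3 normalized counts in controls and 237 ± 24.5 in the eNMES group (log2 fold change -0.77 ± 0.17, adjusted p = 0.0174). The difference of its eNMES changes between genotypes was 0.84 ± 0.20 (adjusted p = 0.0434). Of 16 denervation response genes, 1 was higher and 1 lower in *dmd* mutant controls, close to the 10.9% of all genes. The log2 fold change was positive for 4 of 16, with a list median of -0.10. No expected direction was set for each gene of this list, so these values give no direction of a denervation response. The higher one, *MYOG*, encodes Myogenin, which activates receptor subunit genes in denervated mammalian muscle, and it gave 0.27 ± 0.09 (adjusted p = 0.0641). The lower one was *hdac9b*, a histone deacetylase gene, at -0.29 ± 0.11 (adjusted p = 0.0978). In WT siblings *hdac9b* gave -0.57 ± 0.14 with eNMES (adjusted p = 0.0231), and the difference between genotypes was 0.62 ± 0.16 (adjusted p = 0.0585). The 2 WT sibling groups also lay apart on the clock component. Of its 35 genes, edgeR called 14 with eNMES in WT siblings, all lower, beside 2.95% of all genes. In the difference between genotypes it called 13, all higher, beside 1.85% of all genes. The component was made from these same genes, so the calls restate the separation. Every trained WT sibling library differed from controls both in eNMES and in this component, so which of them *NRG1* and *hdac9b* followed was not tested. Set 1 of the *dmd* mutant controls also lay apart from WT sibling controls on this component. Whether the lower *NRG1* and *hdac9b* of untreated mutants followed it was not tested either.

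Of 33 gene IDs for the motor nerve terminal, 0 were higher and 2 lower in *dmd* mutant controls, with a median of -0.07, a smaller share than the 10.9% of all genes that passed in either direction. One of the lower genes was the synaptic vesicle calcium sensor *SYT1*, at -0.13 ± 0.05. The highest value of the list, 0.96 for the syntaxin *STX1A*, did not pass. One of 2 IDs of the choline transporter *SLC5A7*, which reloads the terminal, gave -0.57 ± 0.16 with eNMES in WT siblings (adjusted p = 0.0473, edgeR), the 1 gene of 33 to pass there, beside 6.48% of all genes. Whether *SLC5A7* followed eNMES or the clock component, which also separates these WT sibling groups, was not tested. The complexin *CPLX1* was called lower in trained *dmd* mutants than in trained WT siblings (-0.65 ± 0.18, adjusted p = 0.0283). Of 15 neuronal AChR subunits, 0 were higher and 1 lower in *dmd* mutant controls (*CHRNA6*, -0.19 ± 0.06), and of 11 glycosylation genes linked to myasthenia, 0 were higher and 1 lower (*GNE*, -0.25 ± 0.09), both shares near or below the background. With eNMES in *dmd* mutants, 0 genes of these 7 lists passed with edgeR and 1 passed with DESeq2, in the nerve terminal list. From 0 to 5 genes of a list had an unadjusted p under 0.05, beside 2653 of all 25832 genes.

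**Figure D5:**
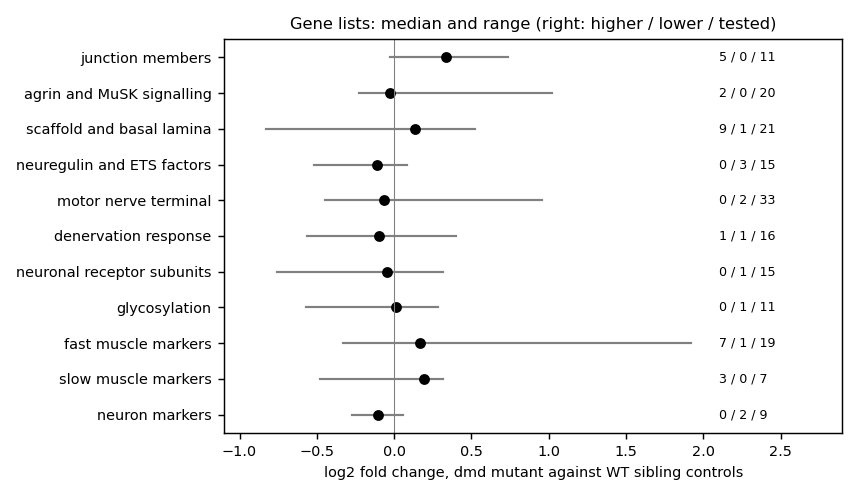
Log2 fold change of *dmd* mutant against WT sibling controls for the junction genes, 7 lists of related genes and 3 lists of cell type markers; points are medians, lines run from the lowest to the highest gene, and numbers at the right count genes higher, lower (adjusted p under 0.1) and tested. The junction genes have a median of 0.33 and 5 of 11 higher, and the motor nerve terminal has 0 of 33 higher.

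Markers of cell types were counted in the same comparison, beside the same 10.9% of all genes. Of 19 fast muscle gene IDs, 7 were higher and 1 lower in *dmd* mutant controls, with a median of 0.17. With the minimum fold change 5 of the 19 were called, all higher, beside 3.12% of all genes. Log2 fold changes of this list ran from -0.33 to 1.92. Of 7 slow muscle gene IDs 3 were higher, with a median of 0.19, and 0 were called. Fast muscle markers summed to 73881 to 81080 TPM in WT sibling controls and 74055 to 89674 TPM in *dmd* mutant controls, ranges that overlap. Slow muscle markers summed to 899 to 970 TPM and 1058 to 1196 TPM, ranges that do not. Of 9 neuron markers 2 were lower, and their sum was 810 to 947 TPM against 702 to 828 TPM. Of 7 markers of myoblasts and fusing muscle cells, 2 were higher, *MYF5* at 0.65 ± 0.17 (adjusted p = 0.0236, edgeR) and *MYOG*. The latter is the same gene that was counted in the denervation response list. The sum of these markers was 40.1 to 48.8 TPM against 50.3 to 77.0 TPM. Of 11 macrophage gene IDs tested, 4 were higher and 0 lower, the highest being 1 of 3 IDs named *MPEG1* at 0.87 ± 0.23 (adjusted p = 0.0294, edgeR). Only 6 of the 11 had a positive log2 fold change, with a median of 0.04 and a lowest value of -1.40. The macrophage sum was 99.3 to 143 TPM in WT sibling controls, with a mean of 124 ± 22.5 (SD). In *dmd* mutant controls it was 74.7 to 181 TPM, with a mean of 99.8 ± 34.5. With eNMES in both genotypes, 12 of 19 fast muscle gene IDs were higher and 1 lower, beside 12.3% of all genes in either direction. Here 5 of the 19 were called, all higher, beside 3.94% of all genes, and values ran from -0.23 to 2.33. The sums were 66311 to 70788 TPM in WT siblings and 69516 to 95184 TPM in *dmd* mutants. These WT sibling sums lay below all WT sibling controls. Within WT siblings, 1 of 19 fast muscle gene IDs had a positive change with eNMES, with a median of -0.172. No marker gene of these lists was at 0 in every library. Whether they have a part in the higher AChR and *musk* counts of *dmd* mutants was not tested.

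Patterns over the 24 libraries were compared by Pearson's r of log2 normalized counts, as a description that includes the differences between groups. The genes closest to *chrng* were *angptl2a* (r = 0.855), *CILP2* (0.834) and *c7a* (0.819), and those closest to *chrna1* were *XIRP2* (0.86), *ENAH* (0.817) and *sync* (0.811). For *chrnd* they were *SMYD1* (0.872), *crfb12* (0.87) and *FEN1* (0.821), and *crfb12* was also among the 3 closest to *musk* (0.835). For *rapsn* the closest was *RREB1* (0.828), and for *dok7* the highest r was 0.68, with *NAV2*.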

How the data were processed

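RNA from whole larvae was made into stranded polyA libraries. The authors trimmed reads with Trimmomatic (0.38.0 per the labels, where the methods give another version), mapped them with Bowtie 1.1.2 to the Ensembl transcriptome (GRCz11) and estimated counts per gene with RSEM 1.2.31. The deposited tables give unscaled expected counts, estimated where reads map to several entries (24.3% to 35.5% of genes per library are not whole), and TPM values that the authors' RSEM run scaled to transcript length and depth. Each library held 2 larvae. Symbols came from a reference table, by exact match or, for lists, by a stem without the last copy letter.

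Counts were rounded. Genes with at least 10 counts over all 24 libraries were tested by edgeR 4.0.16 (R 4.3.3) with TMM, robust quasi-likelihood and 1 fit of 4 groups. P-values were adjusted over 25832 genes, and a gene was called where its log2 fold change exceeded 0.6 in size and its adjusted p was below 0.1. These are the study's thresholds, which it used with DESeq2. Here DESeq2 1.42.0 was run as an alternative, beside other normalizations, filters and thresholds, each library left out, a replicate block, and the *dmd* library sets. Exact permutation tests used log2 of normalized counts with a pseudocount of 1. The members and lists were chosen with earlier results of these data known. Named genes were all members, called genes or extremes of lists, and the 3 most alike genes with a mean of at least 50 normalized counts. For the lists, the text names a part of the genes that this rule covers, and it also names other list genes that passed the test, picked after their values were seen. The values of 1 list gene are not reported here. Only the edgeR fit was tried on simulated counts, for the comparisons of eNMES with control. The simulation gave all genes the same spread between libraries and held no library sets. Genotype comparisons, permutation tests and the other tools were not tried in this way. Figures used matplotlib 3.10.9.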

Additional observations from a re-analysis of the deposited data

Results flagged for a closer look

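A single library stood apart from its group for 2 of the junction genes, by the gap to its nearest neighbour relative to the group's range (Dixon's test), in 36 groups examined. Chance gives about 1 such library in 20 groups. The epsilon subunit gene *chrne* had 590.0 normalized counts in *dmd* mutant eNMES replicate 2, and the other 8 libraries of the group lay between 354 and 454. The *musk* gene had 326 normalized counts in *dmd* mutant control replicate 3, and the other 7 libraries lay between 243 and 277.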

How the results depend on the processing

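The *chrng* call in untreated larvae and in trained larvae held under every alternative tool, filter and scaling and with each library left out. Without a minimum fold change, 5 junction genes passed between untreated genotypes and 3 between trained genotypes. In set 1 of the *dmd* mutant libraries alone, 2 were called between trained genotypes, and with a library left out that count ran from 1 to 2. Log2 changes within *dmd* mutants turned sign in set 1 for *chrne* (0.005) and *musk* (-0.010) and in set 2 for *chrna1* (-0.036), *chrnd* (-0.066) and *dok7* (-0.028). In set 2, *dok7* gave 0.182 between untreated and 0.051 between trained genotypes, and *rapsn* gave -0.130 between trained ones. The cause was not tested. With a library left out, changes that crossed 0 ran as follows. In WT siblings with eNMES, *ache* ran from -0.058 to 0.067, *agrn* from -0.054 to 0.006, *chrne* from -0.062 to 0.089, *chrng* from -0.081 to 0.208, *dok7* from -0.027 to 0.196 and *musk* from -0.035 to 0.065. In *dmd* mutants with eNMES, *chrnd* ran from -0.048 to 0.053. Between untreated genotypes, *dok7* ran from -0.070 to 0.047. Between trained genotypes, *ache* ran from -0.027 to 0.102, *dok7* from -0.154 to 0.074 and *rapsn* from -0.031 to 0.271. None of these changes passed the test.

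Replicate numbers were not used as pairs in the main fit. Deviations of same-numbered libraries correlated between -0.142 and 0.26. Differently numbered libraries were not examined beside them, so these values cannot show whether the numbers pair libraries. With the replicate block, *musk* in WT siblings with eNMES gave -0.002 and *dok7* in *dmd* mutants with eNMES -0.008, and 1 junction gene was called between untreated and 1 between trained genotypes.

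Over all genes, calls for eNMES in WT siblings were 763 and became 423 at an adjusted p under 0.05 and 1675 without a minimum fold change. For eNMES in *dmd* mutants, 33 became 81 with DESeq2, 15, 107, 5 in set 1 and 19 in set 2. Between untreated genotypes, 807 became 1325 with the replicate block, 517, 2805, 1340 in set 1 and 468 in set 2. Between trained genotypes, 1018 became 675, 3181 and 1733 in set 2. For the difference of the eNMES changes, 477 became 794 with DESeq2, 765 with the replicate block, 186, 725, 758 in set 1 and 717 in set 2. With a library left out, these counts ran from 259 to 813, 14 to 59, 491 to 967, 509 to 1121 and 47 to 758. WT sibling groups of 3 and 4 libraries limit what could be detected in comparisons that use them, and the lower *chrnb1* copy, at 17 to 51 counts, is limited by depth as well.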
